A study of Mus musculus with 22 samples.

Results

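The mouse Igk locus, which encodes the kappa light chain of antibodies, was followed probe by probe in thymocyte DNA of 22 Atm-deficient mice. Its members are the 234 probes (236 spots) whose midpoint lies between 67.516 and 70.785 Mb of chromosome 6, out of 232626 probes with a position. They cover 3.269 Mb with a median spacing of 11928 bp. Array comparative genomic hybridisation set genomic DNA of each mouse, labelled with Cy5 (red), against DNA of wildtype thymocytes, labelled with Cy3 (green), on 1 dual-colour array per mouse. By their titles, 8 mice had a T-cell lymphoma and 14 were without findings to the naked eye; all 22 are labelled Atm-deficient (Atm is a kinase activated by breaks in both DNA strands), and none was treated. Strain, age, sex, the altered part of Atm and whether 1 or several wildtype mice gave the reference are not stated in the labels. Each value is the log2 of Atm-deficient signal over wildtype signal, centred on the median of each array's autosomal probes, so that 0 stands for equal signal. Positions are those of the array files, and the sources used here do not name their genome build.

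Igk is built from many variable (V) segments followed by a few joining (J) segments and 1 constant (C) gene. In developing B cells the RAG recombinase joins a V to a J segment, and the DNA between them is deleted or inverted. T-cell precursors use the same recombinase on the Tcra/Tcrd, Tcrb and Tcrg loci and in part on Igh, while Igk is held to stay largely unrearranged in them. The files name no probe for a J segment, and the only probe named after a kappa constant-region cDNA (BC091750) lies at the other end of the locus, at 67597956. The stretch called J-C here therefore holds the 7 probes from the last one named BC094049 up to Rpia, the gene next to Igkc in RefSeq's order (GRCm38.p6, used for gene order only). Those 7 probes run from 70736669 to 70778399. The last member carries the name Rpia, a gene that flanks the receptor segments. Other members carry names of cDNA or V-segment records, such as X00045 (35 probes), AJ007954 (33), AK157689 (43) and BC094049 (25), and 40 are named by position only.

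The 6 member probes shown here illustrate the pattern that the results turn on. All letters are lower case because no part of a probe was singled out. Probes A_67_P01350150 and A_67_P01351468 belong to a group that moved together between arrays, A_67_P05929716 and A_67_P05934406 lie near them and did not follow, the next went the opposite way, and the last is the member that differed between the groups.
A_67_P01350150 at chr6:67575241-67575300: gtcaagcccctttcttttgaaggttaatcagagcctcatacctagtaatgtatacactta
A_67_P05929716 at chr6:67583746-67583805: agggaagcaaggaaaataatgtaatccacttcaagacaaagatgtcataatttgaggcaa
A_67_P01351468 at chr6:70704418-70704477: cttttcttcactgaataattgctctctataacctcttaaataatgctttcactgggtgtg
A_67_P05934406 at chr6:70679365-70679424: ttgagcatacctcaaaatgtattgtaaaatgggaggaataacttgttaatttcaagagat
A_67_P05933792 at chr6:70218796-70218855: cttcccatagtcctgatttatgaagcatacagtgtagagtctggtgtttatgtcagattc
A_67_P05933251 at chr6:69859410-69859469: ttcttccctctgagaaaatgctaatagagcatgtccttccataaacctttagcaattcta
The group that moved together holds 18 probes of 60 bases with 25.0% to 38.3% G and C, against 16.7% to 53.3% over all members. No run longer than 10 identical bases is shared by any pair of the 18, read on both strands. The heptamer of the recombination signal, CACAGTG on either strand, occurs in 3 of 234 member probes (1.28%), in none of the 18 and in 0.881% of all positioned probes.

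Some arrays stood apart over the whole genome. Of these, the arrays labelled as no-lymphoma mouse 3, 4 and 9 correlated with each other at 0.82 to 0.87 over autosomal probes and were noisy. All 8 of the 231 pairs of arrays with r under -0.3 involved at least 1 of these 3, the lowest being -0.48. The labels state the dyes, so the direction was kept, and values with these arrays turned or left out are in the closing section. Of 12 probes named Atm, 11 had means between -0.09 and 0.25. The remaining Atm probe lay between 0.67 and 1.69 in 17 arrays, but at -1.08, -0.72 and -0.63 in the arrays labelled as no-lymphoma mouse 1, 3 and 4 and at 0.44 and 0.08 in no-lymphoma mice 5 and 6. Whether that probe lies in the altered part of Atm is not stated. No member spot was saturated, and 4 members were not well above background in 1 array each.

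Averaged over all 234 probes, Igk stayed near the wildtype level. In the lymphoma arrays the locus mean ran from -0.20 through a median of -0.07 to -0.05, and in the no-lymphoma arrays from -0.19 through -0.06 to 0.07. It lay below 0 in 8 of 8 lymphoma arrays and in 10 of 14 no-lymphoma arrays, and the groups overlapped. The group means were -0.10 ± 0.06 (SD, n = 8) and -0.06 ± 0.08 (SD, n = 14). The difference of -0.05 did not pass an exact two-sided permutation test over all 319770 splits (p = 0.163). It passed with scan batch (arrays scanned close in time, by the file headers) as a block (difference -0.10, exact permutation p = 0.00694) and with the median over probes in place of the mean (-0.07, exact permutation p = 0.00306). With the block, labels were permuted only within scan batches, which gave far fewer splits than 319770. Scan batches 2 and 4 hold no lymphoma array and added nothing to the blocked difference.

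Set against the probes within 1 Mb on either side, Igk was lower in lymphoma arrays than in the others. The locus minus its flanks ran from -0.34 through -0.18 to -0.10 in the lymphoma arrays and from -0.20 through -0.12 to 0.06 in the no-lymphoma arrays. The means were -0.18 ± 0.07 (SD, n = 8) and -0.09 ± 0.09 (SD, n = 14), a difference of -0.09 (exact two-sided permutation test, p = 0.0206), with 8 of 8 and 11 of 14 arrays below 0. The flanks moved too, from 0.03 ± 0.04 (SD, n = 14) in the no-lymphoma group to 0.08 ± 0.05 (SD, n = 8) in lymphoma, so the difference is shared between a lower locus and higher flanks. Without lymphoma mouse 4, the lowest array, the difference was -0.07 and no longer passed (exact permutation p = 0.061). Within the 4 scan batches that hold both groups it was -0.07, -0.17, -0.09 and -0.10, with 1 to 3 arrays a group and no test.

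For a profile the locus was cut by length into 4 equal pieces, A at the end far from J-C to D at the J-C end. Piece B, 56 probes from 68351148 to 69142972 in the V region, was lower in lymphoma. Its mean ran from -0.32 through -0.18 to -0.12 in the lymphoma arrays and from -0.22 through -0.11 to 0.01 in the no-lymphoma arrays. The difference was -0.08 (exact two-sided permutation test, p = 0.00714, 0.0357 after Benjamini-Hochberg adjustment over 5 stretches), with 8 of 8 lymphoma and 13 of 14 no-lymphoma arrays below 0. That call was lost without any 1 of 9 arrays (lymphoma mice 1, 2, 4 and 8, no-lymphoma mice 5, 6 and 13 and the arrays labelled as no-lymphoma mouse 1 and 3), where the adjusted exact permutation p lay between 0.0514 and 0.122. Pieces A, C and D differed by -0.04, -0.07 and -0.01 (adjusted exact permutation p = 0.525, 0.236 and 0.85). With scan batch as a block they differed by -0.11, -0.11 and -0.09 and all 3 passed, as did piece B at -0.09 (adjusted exact permutation p = 0.0174 for each). Those blocked values rest only on the scan batches that hold both groups. The few splits within them allow only coarse p-values. Piece C also passed without the arrays labelled as no-lymphoma mouse 3, 4 and 9 (difference -0.11, adjusted exact permutation p = 0.0048). Median GC content was 35% in piece B and 36.7% in the flanks and over all autosomal probes. With the median of autosomal probes of the same GC class subtracted, a setting added after the data were seen, its difference was -0.10 (adjusted exact permutation p = 0.0178).

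The J-C stretch, where a joined V segment would meet the constant gene, lay near 0 in both groups. Its mean ran from -0.08 through 0.05 to 0.18 in the lymphoma arrays and from -0.18 through 0.02 to 0.19 in the no-lymphoma arrays. Only 2 of 8 and 6 of 14 arrays lay below 0. The difference of 0.04 was within the spread of the arrays (adjusted exact two-sided permutation p = 0.525) and changed sign in 4 of the other settings over all arrays, with scan batch as a block among them (-0.02), and was 0.07, -0.11, -0.07 and 0.08 within the 4 scan batches that hold both groups. Single probes of the stretch averaged between -0.07 and 0.14 over the 22 arrays. The Rpia probe at 70784021 averaged -0.04 ± 0.16 (SD, n = 22).

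The largest moves shared by many members came from 18 probes, most of which were high or low together from array to array. They were chosen from these values, as members with an SD above 0.3 over the 19 arrays other than the 3 noisy ones. A member joined where its r with at least 1 other of them exceeded 0.85, so not every pair had to reach it. The agreement of the 18 is therefore a description with no test. Of 41 members with such an SD, 18 fell into this group. Most lie towards the ends of the locus, 7 from 67555176 to 67855825 and 11 from 69259122 to 70715137, with 9 of the latter named BC094049. The probe at 69259122 lies near the middle of the locus, in piece C. Members that did not follow lie between the 18, and piece B holds none of the 18.

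Averaged over the 18 probes, the ratio took 3 levels. It was 0.77 and 0.71 in lymphoma mice 2 and 5 and 0.86, 0.84, 0.74, 0.76 and 0.74 in no-lymphoma mice 5, 6, 7, 11 and 13. It was -0.75 and -0.79 in no-lymphoma mice 8 and 10 and -0.88 in the array labelled as no-lymphoma mouse 3. In the other 12 arrays, 6 of them lymphoma, it lay between -0.07 and 0.09. The 7 probes far from the J-C end and the 11 nearer to it gave the same levels: 0.70 to 0.90 and 0.67 to 0.84 in the high arrays. In no-lymphoma mice 8 and 10 the former averaged -0.58 and -0.63 and the latter -0.85 and -0.89. No array lay between these levels, and arrays of both groups were found at the high and the middle level.

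Some single probes at opposite ends of the locus had the same high, middle and low arrays. At A_67_P01350150, near the end of the locus far from J-C, the 7 high arrays lay between 1.10 and 1.37, the 10 middle arrays other than the noisy ones between 0.06 and 0.36, and no-lymphoma mice 8 and 10 at -0.72 and -0.63. At A_67_P01351468, near the J-C end and named BC094049, the same arrays lay between 1.03 and 1.29, between -0.16 and 0.21, and at -1.06 and -1.06. The next probe after the former, A_67_P05929716, lay between -0.30 and 0.03 in the 7 high arrays and at -0.31 and -0.09 in mice 8 and 10. The probe A_67_P05934406, between the linked BC094049 probes, lay between -0.19 and 0.18 in the high arrays and at -0.26 and -0.15 in those mice. In the first stretch, from 67555176 to 67717364, 6 of 13 probes belonged to the group. In the BC094049 stretch, from 70516668 to 70715137, 9 of 15 did. The 7 and 6 probes of these stretches that did not belong had medians of 0.08 and 0.18 in the high arrays, where those that belonged had 0.91 and 0.75. Probes joined the group for their SD and correlation in these same values, and the high arrays were set by its mean. This contrast was therefore favoured in advance and carries no test. Among the probes that did not belong, A_67_P05929812 and A_67_P05934379 followed the group in part, while A_67_P05934250 went the opposite way.

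Only 1 member was negatively correlated with the mean of the 18 beyond 0.85 in size. A_67_P05933792, named AF104997, lay between -0.52 and -0.37 in the 7 high arrays and at 0.46 and 0.74 in no-lymphoma mice 8 and 10. It lay between -0.27 and 0.12 in the 10 middle arrays. A_67_P05934250, in the BC094049 stretch, also went that way without reaching the limit. This probe lay between -0.76 and -0.18 in the high arrays and between -0.21 and 0.30 in the middle ones. In mice 8 and 10 it lay at 0.39 and 0.18. Outside the locus, 11 of 219831 other autosomal probes varied with an SD above 0.3 and correlated beyond 0.85 in size with the mean of the 18. Of these, 9 lie on chromosome 6 and 2 on chromosome 5. The nearest lie 39.4 kb before the locus, at 67476507, and 4.97 kb after it, at 70789972 in Rpia. Their 7 high arrays had medians of 0.64 and 0.96. Both chromosome 5 probes, named Hip2, were lower in the high arrays (medians -0.89 and -0.62) and higher in mice 8 and 10 (1.09 and 0.92 at the former). The probe in Ctnna2, also on chromosome 6, had a median of -0.53 in the high arrays. Members were not more variable than other probes on the whole: 17.5% of them had an SD above 0.3, against 22.7% of other autosomal probes and 13.2% of the flanks.

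The 3 levels were split further by the separate channels. For each channel the log2 signal was taken relative to the array's autosomal median and to the probe's median over arrays, then averaged over the 18 probes. The green channel, wildtype DNA, lay between 0.28 and 0.49 in all 11 arrays of scan batches 1, 2 and 4 and between -0.42 and -0.26 in all 11 arrays of scan batches 3, 5 and 6. The red channel, DNA of the Atm-deficient mice, lay between -0.03 and 0.25 in 15 arrays and between -0.75 and -0.56 in 7. Those 7 were lymphoma mice 6, 7 and 8, no-lymphoma mice 8, 10 and 14 and the array labelled as no-lymphoma mouse 3. High ratios were found where green was low and red was high, low ratios where green was high and red was low, and ratios near 0 where both were high or both were low. In lymphoma mouse 2, with a high ratio, green was -0.30 and red 0.18. In no-lymphoma mouse 10, with a low ratio, green was 0.49 and red -0.58. In lymphoma mouse 8 both were low, at -0.42 and -0.74. Over the other 216 members the array means of either channel stayed between -0.22 and 0.12.

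The wildtype level at these probes moved with the scan batch. Scan batches 1, 3, 5 and 6 hold both groups, and within each of them the green channel of lymphoma and no-lymphoma arrays lay on the same side of 0. Scan batch and reference DNA cannot be told apart, since the labels do not say which wildtype DNA went on which array. The red channel took both levels within scan batches 2, 4, 5 and 6 and the higher level only in the 4 arrays each of batches 1 and 3. It was at the lower level in 3 of 8 lymphoma and 4 of 14 no-lymphoma arrays.

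Array-specific runs were called by segmenting chromosome 6 after the median of each probe over the 22 arrays had been subtracted, with a segment counted when its mean was 0.25 or more in size. In 9 of 22 arrays 25 such segments lay in the locus, 19 above and 6 below 0, and 23 of them held at least 1 of the 18 probes. The length they cover was 276 and 265 kb in lymphoma mice 2 and 5 and 0 in the other 6 lymphoma arrays. Among no-lymphoma arrays it reached 384 kb, with a median of 112 kb and 7 of 14 arrays above 0. The means were 67.6 ± 125 kb (SD, n = 8) and 152 ± 161 kb (SD, n = 14), a difference of -84.1 kb that did not pass (exact two-sided permutation test, p = 0.208). With the 18 probes left out, no lymphoma array had any such length, and 2 no-lymphoma arrays, mice 8 and 10, had 49.9 kb each, from 70196445 to 70246382. That run holds A_67_P05933792, the member that went opposite to the 18, at 0.46 and 0.74 in these mice. It is therefore not separate from the pattern of the 18. The 18 were chosen for their SD and correlation in these same values. Their presence in most segments, and the loss of length without them, were therefore favoured in advance. With the 18 probes kept but without the arrays labelled as no-lymphoma mouse 3, 4 and 9 the difference was -145 kb (exact permutation p = 0.046). Its direction turned, with no call, to 31.6 kb with normexp (exact permutation p = 0.635) and to 255 kb with no subtraction of probe medians (exact permutation p = 0.44). None of these permutations held scan batch fixed. With probe medians subtracted, every array of scan batch 3 and none of scan batch 1 had such length. Within scan batches 1, 3, 5 and 6 the difference was 0, 24.8, -218 and -384 kb, with no test. The array labelled as no-lymphoma mouse 3, at -0.88 over the 18, had 0 kb at a noise SD of 0.55. Segments on the values as measured, with no subtraction, also included 1 segment of 189 probes at a mean of -0.25 in lymphoma mouse 4, which covered 2739 kb of the locus.

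Neighbouring members had little in common once these probes were set aside. After subtraction of probe medians, the correlation of each member with the next had a median of 0.09 over the 22 arrays and reached 0.45 in no-lymphoma mouse 10. Without the 18 probes the median was 0.02 and the highest value 0.24. The 18 were chosen for their SD and correlation in these same values, so a fall was favoured in advance. Over all autosomal probes the same measure had a median of 0.54 in lymphoma and 0.16 in no-lymphoma arrays. Within Igk its median in the lymphoma arrays was 0.05. These values are not like measures. Shifts of whole chromosomes or large segments raise the autosomal value, while a shift of the whole locus adds nothing within Igk. These correlations run across probes of 1 array and carry no test.

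Offsets shared by all arrays made up a minor share of the values. Of the variance of member values, with array means removed, 11.2% lay between probes, against 13.5% over all autosomal probes. Without the arrays labelled as no-lymphoma mouse 3, 4 and 9 these shares were 19.95% and 20.9%. Within the lymphoma arrays they were 23.9% for members and 35.7% for autosomal probes, and within the no-lymphoma arrays 10.2% and 8.47%. Against 0, with limma over all positioned probes (adjusted p under 0.05 and a mean beyond 0.25), 1 of 234 members was higher and 15 were lower, where 3.73% and 3.1% of all probes were (6.83% in either direction). With background corrected by normexp the split was 11 higher and 0 lower, and over all probes it turned the same way, to 5.44% higher and 0.304% lower. The reference channel's own spread is not part of this test. The one member above was at 67605750, at 0.41 ± 0.46 (SD, n = 22), and is 1 of the 18. By mean over all arrays the lowest member was A_67_P05932066 at 69085641 (-0.51), which did not pass against 0 (limma adjusted p = 0.101). Then came A_67_P05932764 at 69561386 (AK157689), which passed, at -0.38 ± 0.29 (SD, n = 22) and below 0 in 20 of 22 arrays. It was followed by probes at 68636729 (-0.34), 68083601 (-0.33) and 68351148 (-0.30). The arrays labelled as no-lymphoma mouse 3, 4 and 9 pulled some of these means down. In them 69561386 lay at -1.02, -0.84 and -1.05 and 68636729 at -1.22, -1.12 and -1.14. There 68351148 lay at -0.86, -0.98 and -0.85, but 68083601 at 0.17, 0.11 and 0.19. Without these arrays 3 members were higher and 7 lower, where 5.36% and 3.34% of all probes were. The member A_67_P05931465 at 68701474, chosen after its values were seen, averaged -0.29 ± 0.19 (SD, n = 22) and was below 0 in 22 of 22. Highest by mean, after 67605750, were the linked probes at 67575241 (0.33), 70699157 (0.25) and 67717305 (0.24).

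The most variable member was A_67_P05932066 at 69085641, named AJ007954, whose sequence opens with a long run of t. It lay at -0.51 ± 1.15 (SD, n = 22), between -0.89 and 1.36 in the lymphoma arrays and between -2.69 and 1.29 in the no-lymphoma arrays. Its group difference of 1.28 did not pass limma (adjusted p = 0.0952). The next by SD were 3 of the 18 linked probes and A_67_P05934379 at 70660086, which has 16.7% G and C and an SD of 0.73.

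Between the groups 1 of 234 members passed limma over all positioned probes, where 2.87% of all 232626 probes did (2.13% higher and 0.745% lower in lymphoma), and 38 members (16.2%) had an unadjusted p under 0.05, against 18.5% of all probes. Neither share stood above that of all probes. The member that passed, A_67_P05933251 at 69859410 (AK157689), lay between -0.23 and 0.13 with a median of -0.10 in the lymphoma arrays. It lay between -0.01 and 0.27 with a median of 0.14 in the no-lymphoma arrays, so the groups overlapped. The difference was -0.20 with an SE of 0.05 (limma adjusted p = 0.0444). It is not among the 18 probes. No member passed with scan batch as a block or with normexp in limma. With the block 22 members (9.4%) had an unadjusted p under 0.05, against 8.13% of all probes, and with normexp 7 (2.99%) had, against 11.2%. Without the arrays labelled as no-lymphoma mouse 3, 4 and 9, 6 members (2.56%) passed, against 4.29% of all probes.

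Igk moved less from array to array than the 4 other antigen receptor loci. Its spread over arrays was an SD of 0.06 in lymphoma and 0.08 in no lymphoma, while the means of Tcrb, Tcrg, Tcra/Tcrd and Igh had SDs of 0.81, 0.31, 0.83 and 0.21 in lymphoma and 0.33, 0.25, 0.29 and 0.24 in no lymphoma. Within an array, Igk minus Igh was 0.61 ± 0.23 (SD, n = 8) in lymphoma and 0.06 ± 0.25 (SD, n = 14) in no lymphoma, above 0 in 8 of 8 and 9 of 14 arrays. That difference of 0.55 passed (exact two-sided permutation test, p = 0.000109, 0.000219 after Benjamini-Hochberg adjustment over 4 loci). In scan batch 1, with 3 lymphoma arrays and 1 other, it was -0.04, and in scan batches 3, 5 and 6 it was 0.62, 0.35 and 0.59. The Igh mean was -0.71 ± 0.21 (SD, n = 8) in lymphoma and -0.12 ± 0.24 (SD, n = 14) in no lymphoma. The Igk mean itself differed by -0.05, so the difference of 0.55 came from Igh. Igk minus Tcra/Tcrd was -1.26 ± 0.80 (SD, n = 8) in lymphoma and 0.14 ± 0.30 (SD, n = 14) in no lymphoma. That difference of -1.41 passed as well (exact two-sided permutation test, adjusted p = 0.000175), and the Tcra/Tcrd mean was 1.16 ± 0.83 (SD, n = 8) in lymphoma, where the Igk mean was -0.10. Igk minus Tcrb and Igk minus Tcrg differed by 0.15 and 0.01 (adjusted exact permutation p = 0.750 and 0.962).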

How the data were processed

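Per the labels' protocols, DNA was purified by density ultracentrifugation in caesium chloride, digested by AluI plus RsaI, and labelled using Klenow enzyme. The deposited scanner files give the intensity of both channels, background-subtracted and dye-normalised in Agilent Feature Extraction (9.1.3.1, protocol CGH-v4_91), per the file headers; version 9.1 stands in the submitters' processing notes. A deposited log ratio column holds log10 of red over green, per the file headers, and the value table equalled it in every array (largest difference 0). Build, aligner and array design sequence source are not given in the sources used here.

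Log2 of red over green processed signal was taken per spot, spots with an outlier flag left out (1 of 5148 member values), spots of a probe averaged and arrays centred on their autosomal median, with no loess or quantile step. Chromosome 6 (13994 probes) was segmented by optimal partitioning (penalty 3, at least 5 probes, values held within 4 noise SD of the running 7-probe median). Values per array were compared by exact permutation, and probes with limma 3.58.1 in R 4.3.3; other steps used Python 3.11.15, numpy 2.4.6 and numba 0.67.0. In data simulated for the lymphoma against no-lymphoma comparison over 232626 probes, limma found 42 of 100 probes changed by 0.5 and 86 of 100 changed by 1.0, with 4 false calls. The simulated noise was independent between probes and arrays and had no scan batch. Real arrays and neighbouring probes were correlated, so these counts do not describe false calls in the real data.

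Scan batches are groups of arrays by scan time in the headers: 1 (lymphoma mice 1, 3, 4, no-lymphoma mouse 2), 2 (arrays labelled as no-lymphoma mouse 1, 3, 4), 3 (lymphoma mice 2, 5, no-lymphoma mice 5, 6), 4 (no-lymphoma mice 8, 9, 10, 12), 5 (lymphoma mouse 8, no-lymphoma mice 7, 11, 14) and 6 (lymphoma mice 6, 7, no-lymphoma mouse 13). Each array is 1 mouse, and their number limits the precision. Named probes are those that passed limma (at most 10), the 5 with the highest, the 5 with the lowest mean and the 5 with the largest SD, and those at the J-C stretch and the ends; others were chosen after their values were seen. A few named items are not reported here. Members and lists were chosen with earlier results of these data known. The alternatives tried changed background correction, centring, flags, dim probes, scan batch, direction and use of doubted arrays, summary, flank width and segment settings; leaving out the 18 linked probes and subtracting GC medians were added after the data were seen.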

Additional observations from a re-analysis of the deposited data

Results flagged for a closer look

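Among the 8 lymphoma arrays, 3 values lay far from the other 7. The Igk locus minus its flanks was -0.34 in lymphoma mouse 4. Igk minus Tcrg was 0.81 in lymphoma mouse 2, whose Tcrg mean was -0.88, and Igk minus Igh was 0.094 in lymphoma mouse 1, whose Igh mean was -0.25. In each case the gap to the next array, divided by the range of the 8, was 0.532, 0.626 and 0.550 respectively, above the critical value of Dixon's test, which chance passes in about 1 of 20 groups. Several results were screened this way, with no adjustment for their number. The group of 14 was not screened, so such values are not shown to be particular to the lymphoma arrays.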

How the results depend on the processing

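Igk minus Tcra/Tcrd and Igk minus Igh kept direction and call in every tested setting. The locus minus flanks kept them in all but 1, without lymphoma mouse 4, and had exact permutation p between 0.00276 and 0.0442 elsewhere. Normexp used median signals with an offset of 50, because most files lack mean signals. It gave -0.064 for piece B (no longer called), -0.10 and -0.055 for Igk minus Tcrb and Tcrg, 31.6 kb for the altered length and 0 probes between groups. Centring on the mode gave -0.056 for piece B (no longer called), 0.020 for piece D and 0 probes. Without dim probes Igk minus Tcrg was -0.060. With scan batch as a block, the locus was -0.10 and pieces A, C and D were -0.11, -0.11 and -0.089, now called; the J-C stretch was -0.020, Igk minus Tcrg -0.11 and 0 probes were called. Without scan batch 2 piece B was -0.071 (no longer called), Igk minus Tcrg -0.12 and the altered length -143 kb (called). With its sign turned, the locus was -0.092 and piece C -0.13 (called), the J-C stretch -0.0034, Igk minus Tcrg -0.16 and 9 probes lay away from 0. With the sign of the arrays labelled as no-lymphoma mouse 3, 4 and 9 turned, the locus was -0.12, piece C -0.17 and the altered length -152 kb (called), the J-C stretch -0.026, Igk minus Tcrg -0.14 and 5 probes differed. Without them the locus was -0.077, piece C -0.11 and the altered length -145 kb (called), the J-C stretch -0.0059, Igk minus Tcrg -0.11, 6 probes differed and 10 lay away from 0. Without the arrays labelled as no-lymphoma mouse 1, 3, 4, 5 and 6 piece B was -0.051 (not called), and Igk minus Tcrb and Tcrg were -0.0022 and -0.12. Without the 18 linked probes the locus was -0.058 (called) and Igk minus Tcrg -0.0037. With GC medians subtracted the locus was -0.059 and piece C -0.082 (called), Igk minus Tcrg -0.0031 and 0 probes differed. With medians over probes the locus was -0.071 and piece C -0.099 (called), and Igk minus Tcrb and Tcrg were -0.056 and -0.11. A mean beyond 0.35 left 2 probes away from 0, and no subtraction of probe medians gave 255 kb, which holds the long segment of lymphoma mouse 4. Linked probes sought in the green channel alone gave a largest set of 18, none of them shared. Another set from that channel held 15, all among the 18 linked probes.

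Within scan batch 1, Igk minus Tcrb, Tcrg, Tcra/Tcrd and Igh were -0.20, -0.28, -1.87 and -0.042. Within batch 3 the J-C stretch, Igk minus Tcrb and Igk minus Tcra/Tcrd were -0.11, 1.31 and -2.13. Within batch 5 piece A was -0.22 and Igk minus Tcra/Tcrd -0.39, and within batch 6 piece A was -0.14 and Igk minus Tcrb -0.21. Leaving out each array in turn gave -0.11 to -0.072 for the locus minus flanks, -0.095 to -0.066 for piece B, -0.027 to 0.0068 for piece D, -0.041 to 0.29 for Igk minus Tcrb, -0.099 to 0.055 for Igk minus Tcrg, 0 to 3 probes between groups and 13 to 21 away from 0. Unless stated, the cause was not tested. No paired analysis was possible because the labels give no replicate numbers that groups share. Scan batches 2 and 4 hold no lymphoma array, so they give no within-batch value. The number of arrays and a probe spacing of 11928 bp limit what could be seen, and short deletions between probes were not detectable.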

Other observations

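The 18 linked probes were also looked for in the green channel alone, a step added after the data were seen. The largest correlated set of members in that channel held 18 probes and shared 0 with them; the set that shared most held 15, all among the 18. With a correlation limit of 0.9 in place of 0.85, 16 probes were joined. With the 18 probes left out, the member values of no-lymphoma mice 8 and 10, both of scan batch 4, correlated at 0.77. Those of lymphoma mice 1 and 4, both of scan batch 1, correlated at 0.72. Higher values, 0.83 to 0.87, were found among the arrays labelled as no-lymphoma mouse 3, 4 and 9. All are correlations across probes with no test.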
